A study of Mus musculus with 9 samples.

Results

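A set of 10 hypothalamic genes was followed across a brain RNA data set, namely the precursor genes of 9 neuropeptides (Hcrt, Pmch, Oxt, Avp, Pomc, Agrp, Trh, Ghrh and Gal) and Nkx2-1, a transcription factor gene. They make up 10 of the 20731 genes in the count table and were chosen by symbol after the differences between the 4-PBA group and the other groups had been seen. The levels in the 4-PBA group are therefore given as a description, without a test. RNA from the brains of 9 male C57BL/6J mice aged 8 to 10 weeks was sequenced on day 2 after modelling, from 3 mice in each of 3 groups. In every mouse ferric chloride was used to induce thrombosis of the superior sagittal sinus, the model of cerebral venous sinus thrombosis (CVST). The CVST group had thrombosis alone. Mice of both other groups, CVST+Ligation and 4-PBA, also underwent ligation of the deep cervical lymph nodes, which receive the drainage of the meningeal lymphatic vessels. The 4-PBA group additionally received 4-phenylbutyric acid (4-PBA), a chemical chaperone that lowers endoplasmic reticulum stress, at 100 mg/kg into the peritoneum. The methods place this dose 30 min before modelling, the data set's description places it after ligation, and whether the other groups received the solvent is unclear. Sham-operated mice were not analysed here. The tissue is labelled brain, whereas the data set's description names cortex, so the region taken from each mouse is uncertain.

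The hypothalamus makes many of its peptides in small, separate groups of neurons. Orexin neurons (Hcrt) and melanin-concentrating hormone neurons (Pmch) lie in its lateral part and act on wakefulness and feeding, oxytocin and vasopressin (Oxt, Avp) come from the large neurons of the paraventricular and supraoptic nuclei, and neurons of the arcuate nucleus make either Pomc, which lowers food intake, or Agrp, which raises it. Nkx2-1 encodes a homeodomain protein that patterns the ventral hypothalamus and the ventral telencephalon and is also active in thyroid and lung.

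The positions of the 10 genes are those of GENCODE M21 on GRCm38, the build named in the submitters' processing notes, and all 10 are protein-coding. Hcrt lies at chr11:100761069-100762931, Pmch at chr10:88091072-88092375 and Nkx2-1 at chr12:56531958-56536908. Oxt (chr2:130576173-130577054) and Avp (chr2:130580620-130582554) are neighbours on opposite strands, with 3565 bases between them. Pomc lies at chr12:3954951-3960642, Gal at chr19:3409915-3414544, Trh at chr6:92242061-92244650, Ghrh at chr2:157329497-157347506 and Agrp at chr8:105566698-105637393. Promoters were taken from RefSeq (GRCm38.p6), which had an entry for 9 of the 10 genes and 2 entries for Ghrh. Agrp had no entry. The 250 bases before the start are shown for Hcrt, Pmch, Nkx2-1 and the neighbours Oxt and Avp, 5 of the 6 genes whose 4-PBA libraries all lay above the other libraries, 5′ to 3′ on the strand of the gene, with capitals marking a match to CAAGTG or CTCAAG, core letters bound by the NKX2-1 protein, or to the TATA box letters TATAAA. The windows are chr11:100762932-100763181 on the minus strand for Hcrt, chr10:88090822-88091071 on the plus strand for Pmch, chr2:130575919-130576168 on the plus strand for Oxt, chr2:130582589-130582838 on the minus strand for Avp and chr12:56536909-56537158 on the minus strand for Nkx2-1.
Hcrt: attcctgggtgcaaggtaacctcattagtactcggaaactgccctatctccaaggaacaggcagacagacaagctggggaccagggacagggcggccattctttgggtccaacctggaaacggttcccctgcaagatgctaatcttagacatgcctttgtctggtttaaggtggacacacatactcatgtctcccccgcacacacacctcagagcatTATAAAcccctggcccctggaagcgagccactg
Pmch: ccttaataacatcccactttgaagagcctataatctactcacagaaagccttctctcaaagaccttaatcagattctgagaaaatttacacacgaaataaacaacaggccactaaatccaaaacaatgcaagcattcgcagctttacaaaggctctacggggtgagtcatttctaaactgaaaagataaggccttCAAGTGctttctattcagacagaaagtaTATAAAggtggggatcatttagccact
Oxt: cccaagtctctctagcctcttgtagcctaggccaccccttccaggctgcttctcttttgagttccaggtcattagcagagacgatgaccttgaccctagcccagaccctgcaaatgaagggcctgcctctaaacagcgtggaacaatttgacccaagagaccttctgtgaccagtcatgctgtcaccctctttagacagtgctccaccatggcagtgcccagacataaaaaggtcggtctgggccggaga
Avp: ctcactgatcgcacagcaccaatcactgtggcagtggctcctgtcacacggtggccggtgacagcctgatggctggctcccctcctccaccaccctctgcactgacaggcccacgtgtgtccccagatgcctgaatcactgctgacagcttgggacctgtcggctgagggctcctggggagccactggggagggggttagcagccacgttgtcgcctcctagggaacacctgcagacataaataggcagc
Nkx2-1: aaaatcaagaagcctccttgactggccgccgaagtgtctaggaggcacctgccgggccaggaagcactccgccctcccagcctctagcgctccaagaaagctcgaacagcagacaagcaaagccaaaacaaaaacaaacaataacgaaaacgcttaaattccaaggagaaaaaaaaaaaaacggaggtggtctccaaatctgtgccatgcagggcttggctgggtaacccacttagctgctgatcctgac
TATAAA was found 33 bases before the start of Hcrt and 27 bases before that of Pmch, and also 25 bases before that of Pomc and 31 bases before the second start of Ghrh. With both strands searched, it stood in 4 of the 10 promoter windows of these genes and in 12.4% of all 32841 windows of that length. CAAGTG was found in the Pmch window alone, 55 bases before the start, against 11.6% of all windows, and CTCAAG was in 0 of the 10 windows against 13.3% of all. The matches do not overlap each other. A match of letters is a description of the sequence and not a binding site.

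Between 18100739 and 25091498 reads were counted per library, so that 3 counts, taken here as the floor below which no level is read, correspond to 0.114 to 0.163 CPM, counts scaled to a common library size. The scaling used the TMM method. Of the 10 genes, 8 passed the expression filter for the model of all 14746 genes tested, and Agrp and Ghrh did not. Hcrt, Oxt, Avp and Nkx2-1 passed only through the 4-PBA libraries, where they are high. In 6 of the 10 genes (Hcrt, Pmch, Oxt, Avp, Pomc and Nkx2-1) all 3 libraries of the 4-PBA group lay above all 6 other libraries, as did 1.5% of all genes tested. Without CVST+Ligation replicate 2, an alternative added after seeing the data, the share of all genes was 6.85%. Since the genes were chosen for their 4-PBA levels, nothing is read from this count. In RNA from whole tissue, a larger share of cells that make a peptide and more RNA per cell cannot be told apart.

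**Figure D1:**
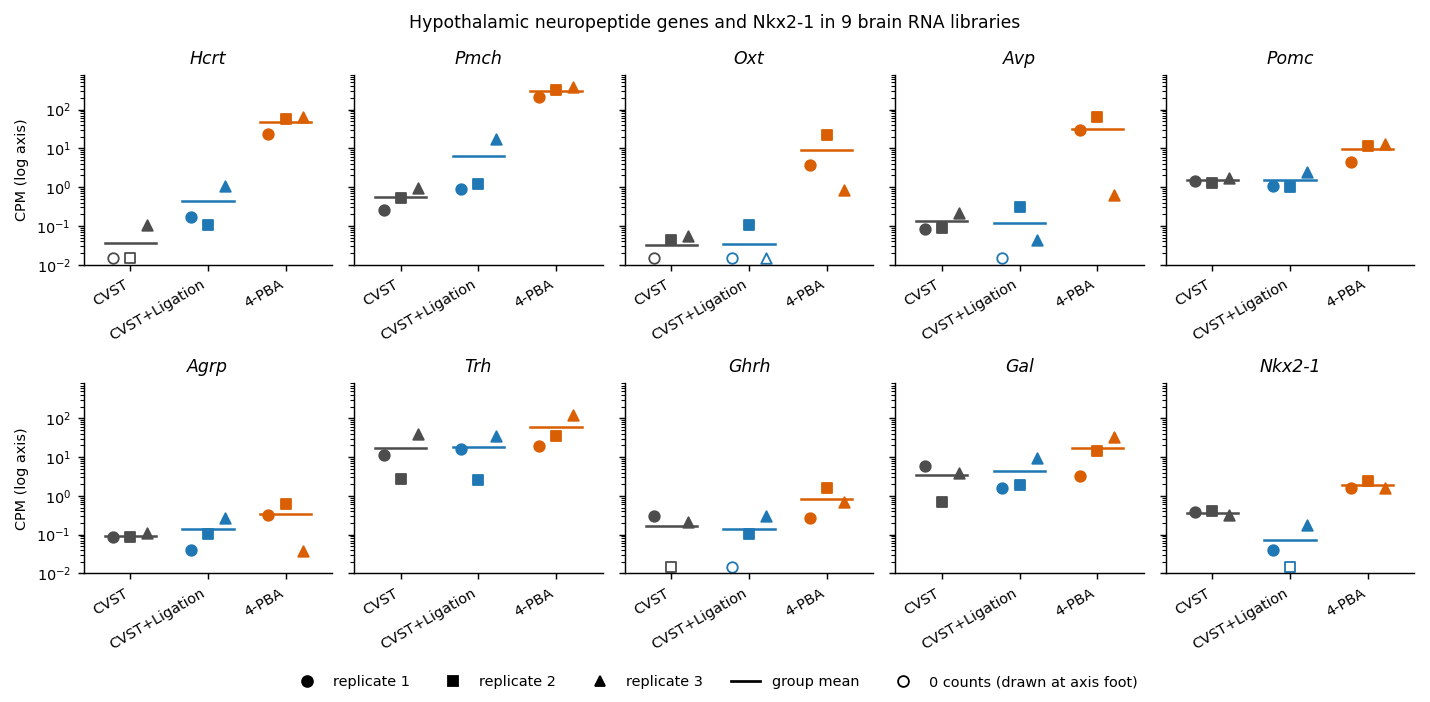
Levels of the 10 genes in the 9 libraries, in CPM on a log axis, with 1 symbol per replicate, a line at each group mean, and open symbols at the foot for libraries with 0 counts. Hcrt and Pmch stand apart from both other groups in all 3 libraries of the 4-PBA group, whereas Trh, Gal, Ghrh and Agrp overlap between the groups.

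Both peptides of the lateral hypothalamus were counted far more in every 4-PBA library than in any other library. Hcrt had 0, 0 and 2 counts in the CVST libraries, 4, 2 and 24 in the CVST+Ligation libraries and 441, 1321 and 1691 in the 4-PBA libraries. Pmch had 6, 12 and 17 counts, then 22, 23 and 386, and then 3936, 7512 and 9908 in the same order. For both genes CVST+Ligation replicate 3 was far above its group and still below every 4-PBA library, as the plot of levels by library shows. CVST+Ligation replicate 2, with 2 counts of Hcrt, lay under the floor of 3 and enters the mean of its group. The mean level of Hcrt went from 0.441 ± 0.532 CPM (SD, n = 3) among the ligated mice to 48 ± 21.3 CPM (SD, n = 3) among the 4-PBA mice, and that of Pmch from 6.35 ± 9.19 CPM (SD, n = 3) to 302 ± 83 CPM (SD, n = 3). The fitted log2 fold change between these groups was 6.73 (standard error, SE, 0.77) for Hcrt and 5.57 (SE 1.01) for Pmch. Without CVST+Ligation replicate 3 they were 8.39 and 8.18. Against the CVST group the pooled Hcrt rate of the 4-PBA libraries was 1630-fold, and 2 counts in the CVST group gave a 95% exact interval of 450 to 13400 for it, which covers counting error only. Ranked by FPKM, a level per gene length, Pmch stood at place 278, 165 and 130 of the 20731 genes in the 4-PBA libraries. It stood at place 12021 to 13734 in the CVST libraries and at place 4258 in CVST+Ligation replicate 3. The place of Hcrt in the 4-PBA libraries was 2854, 1283 and 1062.

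The proportion between Hcrt and Pmch was compared in the libraries where both had over 20 counts. The FPKM ratio of Pmch to Hcrt was 8.1, 5.16 and 5.31 in the 4-PBA libraries and 14.6 in CVST+Ligation replicate 3. The root mean square difference of their centred log2 CPM profiles over the 9 libraries was 0.571. Both genes were chosen with their 4-PBA levels in view, and the measure depends on the size of a change. Shared regulation is not read from it. Among the genes outside the list with the profiles nearest to Hcrt were Cga, Fezf1, Frem3 and Abhd12b, at differences of 1.92, 2.10, 2.13 and 2.15, and these 4 genes were also among the nearest to Pmch, at 1.99 to 2.28. Cga encodes the common subunit of pituitary glycoprotein hormones. Its counts were 10, 0 and 0 in the CVST group, 0, 0 and 29 in the CVST+Ligation group and 227, 38 and 349 in the 4-PBA group. Fezf1, a transcription factor gene of the ventromedial hypothalamus, had 0, 1 and 3, then 1, 0 and 8, then 46, 142 and 18 counts.

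The peptides of the large neurosecretory neurons were close to absent outside the 4-PBA group and uneven within it. Oxt had 0, 1 and 1 counts in the CVST libraries, 0, 2 and 0 in the CVST+Ligation libraries and 70, 523 and 22 in the 4-PBA libraries. Avp had 2, 2 and 4 counts, then 0, 6 and 1, and then 551, 1532 and 16. Replicate 2 was the highest and replicate 3 the lowest 4-PBA library for both genes, while replicate 3 was the highest of the group for Hcrt and Pmch. The level in the 4-PBA group was 8.88 ± 11.5 CPM (SD, n = 3) for Oxt and 31.6 ± 32 CPM (SD, n = 3) for Avp. For Oxt, with 2 counts in all 3 CVST+Ligation libraries, the pooled rate of the 4-PBA libraries was 298-fold with a 95% exact interval of 82.1 to 2470. For Avp it was 291-fold with an interval of 141 to 724. Both intervals cover counting error only and not the spread between mice, since the highest 4-PBA library was 26.3-fold above the lowest for Oxt and 106-fold for Avp. Most CVST+Ligation counts of both genes lay under the floor of 3, so the size of a fitted fold is limited by counting. The fitted log2 fold change of Oxt was 7.94 (SE 1.51), and that of Avp was 8.13 (SE 1.60). Without 4-PBA replicate 2 they were 5.98 and 7.05, and without CVST+Ligation replicate 2, which holds both Oxt counts and 6 of the 7 Avp counts of its group, they were 10.6 and 10.2. On the scale of log2(FPKM + 1) in limma it was 3.60 for Oxt and 4.44 for Avp, where the pseudocount raises the low group.

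The proportions between these peptides also differed between the 4-PBA mice. The FPKM ratio of Avp to Oxt was 5.86, 2.18 and 0.541 in replicates 1, 2 and 3, and that of Hcrt to Oxt was 5.26, 2.11 and 64.2. The plot of gene pairs shows that Hcrt and Pmch lie along a common line while 4-PBA replicate 3 drops far down that of Oxt and Avp. The basal forebrain markers followed the same order of mice. Lhx8, a transcription factor gene of forebrain cholinergic neurons, had 140, 167 and 0 counts in the 4-PBA libraries, and the summed level of all 10 basal forebrain markers was 136, 218 and 37.6 CPM there. It was 28.9 to 75.2 CPM in the CVST group and 44.8 to 56.6 CPM in the CVST+Ligation group, and its part in the result was not tested.

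**Figure D2:**
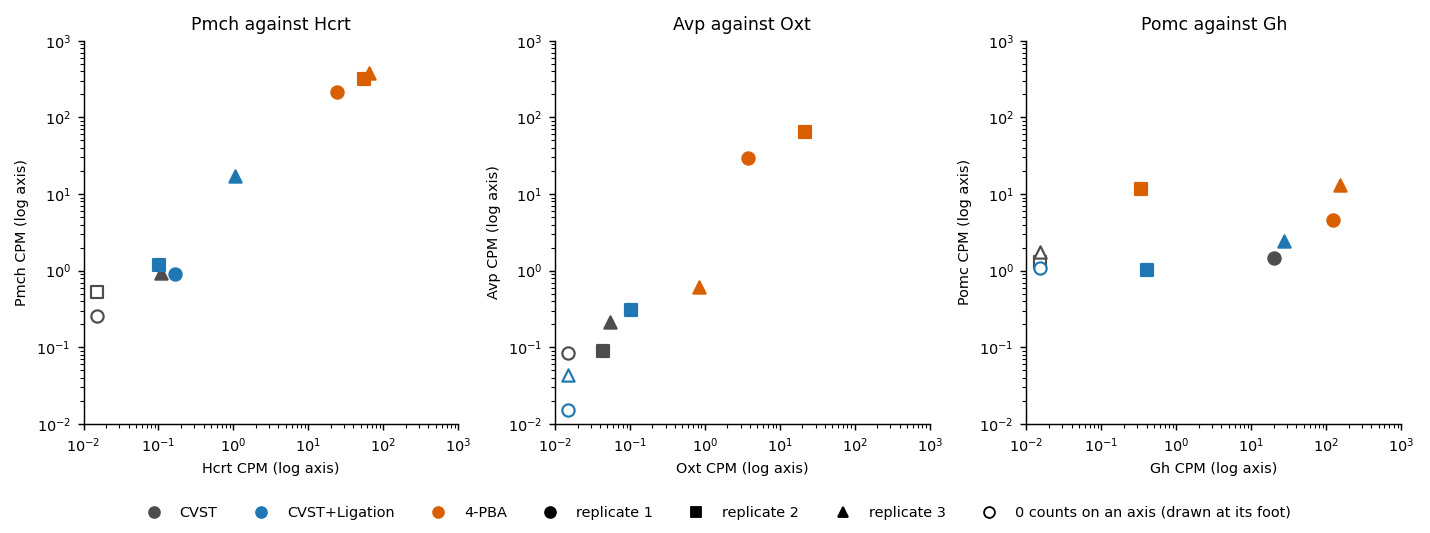
Levels of 3 pairs of genes in the 9 libraries, in CPM on log axes, with the group as colour, the replicate as symbol and open symbols for 0 counts. The 4-PBA libraries lie together for Pmch and Hcrt and are spread for Avp and Oxt, and 4-PBA replicate 2, with 8 Gh counts, has 277 Pomc counts.

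Of the feeding peptides of the arcuate nucleus, Pomc was counted in every library. It had 34, 29 and 32 counts in the CVST group, 26, 20 and 55 in the CVST+Ligation group and 84, 277 and 348 in the 4-PBA group. The CVST and CVST+Ligation groups overlapped, and every 4-PBA library was higher. The ligated mice averaged 1.51 ± 0.788 CPM (SD, n = 3) and the 4-PBA mice 9.82 ± 4.63 CPM (SD, n = 3), and the fitted log2 difference was 2.70 (SE 0.48). Agrp, the opposing peptide of the same nucleus, had 2, 2 and 2 counts, then 1, 2 and 6, then 6, 15 and 1, so the groups overlapped and a difference was not detectable at this depth. Pomc is also made in the pituitary, so the hormone genes of that gland were read beside it. Gh, the growth hormone gene, had 478, 0 and 0 counts in the CVST group, 0, 8 and 614 in the CVST+Ligation group and 2281, 8 and 3962 in the 4-PBA group. 4-PBA replicate 2 thus had 277 Pomc counts with 8 counts of Gh and 4 of Prl, the prolactin gene, while CVST replicate 1 had 478 of Gh and 34 of Pomc. Between the 4-PBA and CVST+Ligation groups the log2 fold change was 3.32 (SE 2.27) for Gh and 4.38 (SE 1.45) for Cga. Both genes passed the filter only through the 4-PBA libraries and are given without a test. For Lhb, the luteinizing hormone subunit gene, the log2 fold change was 2.04 (SE 0.88). Tbx19, the transcription factor gene of the pituitary cells that make Pomc, had at most 4 counts in a library. Pou1f1, another pituitary transcription factor gene, also had at most 4, with 4 in 4-PBA replicate 3, where Gh had 3962. Nothing on the source of Pomc is read from the low counts of Tbx19. The summed level of the 14 pituitary genes was 1.37 to 29.2 CPM in the CVST group, 2.56 to 47.1 CPM in the CVST+Ligation group and 8.92 to 250 CPM in the 4-PBA group. In the other 4-PBA mice, replicates 1 and 3, Pomc and the summed pituitary genes both lay above all libraries of the other groups, and the part of pituitary RNA in their Pomc level was not tested.

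The releasing hormones and galanin differed widely between mice of the same group. Trh, the thyrotropin-releasing hormone gene, had 261, 62 and 712 counts in the CVST group, 398, 51 and 811 in the CVST+Ligation group and 365, 831 and 3173 in the 4-PBA group. Ghrh, the growth hormone-releasing hormone gene, had at most 7 counts outside the 4-PBA group and 5, 38 and 18 within it. Gal, the galanin gene, had 136, 16 and 73 counts, then 39, 37 and 216, then 60, 349 and 885. All 3 genes overlapped between the groups. The log2 fold change between the 4-PBA and CVST+Ligation groups was 1.68 (SE 1.06) for Trh and 1.99 (SE 0.97) for Gal. Without 4-PBA replicate 3, the highest library for both, it was 0.583 for Trh and 1.05 for Gal.

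Nkx2-1 was counted in single digits outside the 4-PBA group and at 30 counts or more within it. It had 9, 9 and 6 counts in the CVST group, 1, 0 and 4 in the CVST+Ligation group and 30, 59 and 41 in the 4-PBA group. The CVST mice averaged 0.369 ± 0.0386 CPM (SD, n = 3) and the 4-PBA mice 1.89 ± 0.514 CPM (SD, n = 3), and no level is read for the ligated mice, of which replicates 1 and 2 lay under the floor of 3 counts. Against the 5 counts of the 3 ligated libraries the pooled rate of the 4-PBA libraries was 25.2-fold, with a 95% exact interval of 10.5 to 78.9 that covers counting error only. The ligated counts under the floor also enter the fits, whose folds are limited by counting. The fitted log2 fold change differed between the fits, at 4.56 (SE 0.73), 6.07 without CVST+Ligation replicate 3 and 1.35 on the scale of log2(FPKM + 1). The profiles nearest to it outside the list were those of Isl1, Calml4, Tac2, Ccl3 and Armc3, at root mean square differences of 0.77, 0.91, 0.911, 0.95 and 0.957, and Pomc stood at 0.782. Those nearest to Pomc were Deup1, Dsg1c, Cdhr2, Ramp3 and Gng8, at 0.624 to 0.745. Isl1, a homeodomain gene of arcuate and other neurons, had 69, 61 and 25 counts in the CVST group, 2, 6 and 31 in the CVST+Ligation group and 103, 451 and 87 in the 4-PBA group. Of the thyroid and lung genes, Foxe1, Sftpb and Sftpa1 had 0 counts in every library, and the summed level of the 10 genes of these tissues was 10.2 to 14.3, 10.3 to 11.6 and 9.41 to 13.4 CPM in the 3 groups. The fold changes of Tshr, Tg and Sftpc were 1.59 (SE 0.81), -0.33 (SE 0.62) and 0.07 (SE 0.62) on the log2 scale in the 4-PBA minus CVST+Ligation contrast. Tshr passed the filter only through the 4-PBA libraries and is given without a test.

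The CVST+Ligation group was compared with the CVST group to ask what ligation adds to thrombosis. This contrast shares its ligated libraries with the contrast in view when the genes were chosen. Hcrt, Oxt, Avp and Nkx2-1, which entered the model only through the 4-PBA libraries, are given here without a test. Of the 4 other genes tested, Pmch was higher at an unadjusted p below 0.05, where 5.47% of all genes tested were higher and 4.18% lower, and Pomc, Trh and Gal did not pass. Adjusted over all genes by Benjamini-Hochberg, the p of edgeR's quasi-likelihood test lay between 0.38 and 0.991 for these 4 genes, and 0.0203% of all genes passed 0.05. The log2 fold change of Pmch was 3.52 (SE 1.12), its adjusted p was 0.0597 with DESeq2, and the groups overlapped. Without CVST+Ligation replicate 3 the fold change of Pmch was 0.907, with an unadjusted p of 0.0956 in edgeR's quasi-likelihood test. That of Hcrt was 3.62 (SE 1.35) with overlapping groups, and 1.95 without the same library. For Nkx2-1, with 24 counts in the CVST libraries and 5 in the ligated ones, it was -2.23 (SE 0.77), -3.73 without CVST+Ligation replicate 3 and -0.317 on the scale of log2(FPKM + 1). The median log2 fold change of the 8 genes was 0.05, against 0.00 over all genes tested. In the 4-PBA minus CVST+Ligation contrast 1.81% of all genes tested were higher and 1.42% lower at an unadjusted p below 0.05, and 0% passed after adjustment, which is 0 genes in edgeR's quasi-likelihood test with 476 at the unadjusted level and 22 by DESeq2. Without CVST+Ligation replicate 2 the number at the unadjusted level was 1497. In the 4-PBA minus CVST contrast these shares were 8.07%, 7.33% and 0.122%. The median over the 8 genes was 5.06 in the first and 5.32 in the second of these, against -0.02 and -0.01 over all genes tested. Both contrasts with the 4-PBA group share its 3 libraries, and the genes were chosen on them, so these medians over the genes that passed the filter are descriptions.

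**Figure D3:**
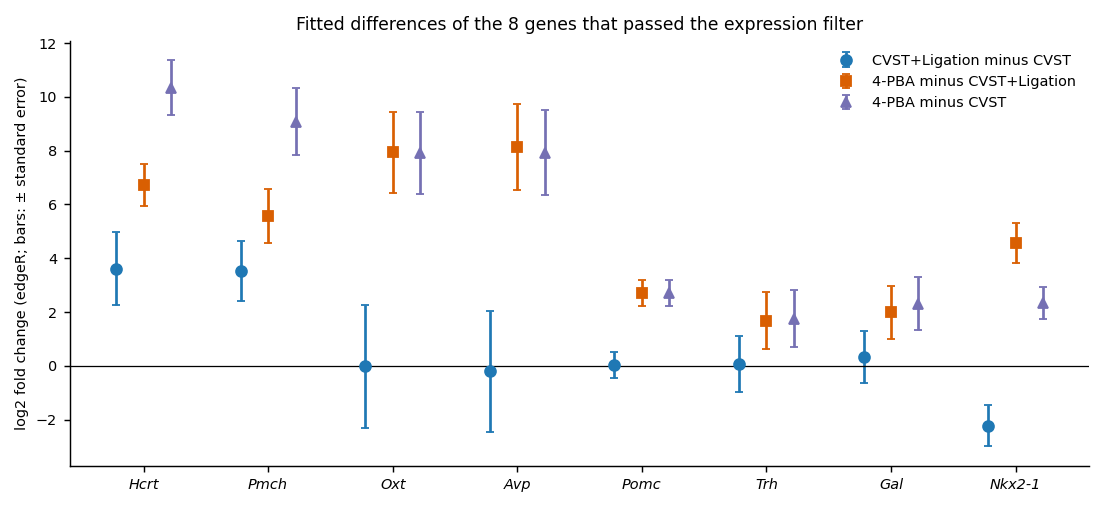
Fitted log2 fold changes of the 8 genes that passed the expression filter in the 3 contrasts, with bars for the standard error of the model. All 8 lie above 0 in both contrasts with the 4-PBA group, which share libraries, and for CVST+Ligation minus CVST 5 lie above 0 and 3 below.

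Other genes of the hypothalamus were read from 3 lists of 53 genes in all, which hold further peptides, transcription factors and cell markers. Of these, 30 passed the expression filter. Of the 30 genes, 4 (Otp, Fezf1, Gpr50 and Calcr) passed only through the 4-PBA libraries, so the counts rest on the 26 others, an alternative added after seeing the data. In the 4-PBA minus CVST+Ligation contrast 7 of the 26 were higher and 0 lower at an unadjusted p below 0.05. Of the 14397 genes that passed the filter without the 4-PBA libraries, 1.54% were higher and 1.44% lower. The smallest adjusted p of the list genes rounded to 1 in edgeR's quasi-likelihood test. With all 30 genes 8 were higher, where 1.81% of all genes tested were. For CVST+Ligation minus CVST 7 of the 26 were higher and 2 lower, where 5.3% and 4.22% of the 14397 genes were. For 4-PBA minus CVST 13 of the 26 were higher and 0 lower, where 7.73% and 7.51% of the 14397 genes were. The median log2 fold change of the 26 genes was 0.38, 0.58 and 1.44 in these contrasts, in the order named. The summed level of the 53 genes was 84.3 to 120 CPM in the CVST group, 145 to 265 CPM in the CVST+Ligation group and 273 to 427 CPM in the 4-PBA group. The groups did not overlap, though 265 and 273 CPM lie close. A large part of the sum came from Baiap3 and Peg10, so it does not show the 53 genes separating as a set. Baiap3 had 468, 1712 and 634 counts in the CVST+Ligation group and 2189, 2766 and 2244 in the 4-PBA group. Peg10 averaged 29.5 and 56.4 CPM in these groups. The list was chosen with earlier results of these data known, and it holds genes that other brain regions also express.

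Among the peptides of these lists, Cartpt, whose product lowers food intake, differed by a log2 fold change of 1.34 (SE 0.46) and Nts, the neurotensin gene, by 1.54 (SE 0.66) between the 4-PBA and CVST+Ligation groups, both with an adjusted p that rounds to 1 in edgeR's quasi-likelihood test. Rln3, the relaxin-3 gene, was -2.40 and Spx, the spexin gene, -1.33. Of the 15 peptides 5 were tested. Kiss1, the kisspeptin gene, had 0 counts in every library. Npvf had 0, 24 and 48 counts and Ucn3 34, 51 and 4 counts in the 4-PBA libraries, with 0 in every CVST+Ligation library, so they were at least 6.92-fold and at least 10.1-fold higher against the floor of 3 counts per library. Among the transcription factors Isl1 was 3.97 (SE 0.93), Fezf1 4.45 (SE 1.16), Six3 1.81 (SE 0.44) and Nkx2-2 0.38 (SE 0.34) on the log2 scale, and Bsx, with 0, 47 and 24 counts in the 4-PBA libraries and 0 in the 6 others, was at least 7.05-fold higher. DESeq2, alone among the alternatives, gave Isl1 and Six3 an adjusted p under the threshold, at 0.00362 and 0.0435. Bsx encodes a homeodomain protein needed for hypothalamic feeding peptides. Among the cell markers, Crabp1 differed by 2.84 (SE 0.70), Hdc, the histamine-synthesising enzyme of the posterior hypothalamus, by 2.44 (SE 0.66), Prlr by 1.43 (SE 0.45) and Peg10 by 0.94 (SE 0.44). Hdc had 36, 80 and 21 counts in the CVST+Ligation group and 59, 367 and 432 in the 4-PBA group, so 4-PBA replicate 1 lay within the range of the ligated mice.

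The receptors through which these peptides act were read beside them. Of the 18 receptor genes 11 were tested, of which Galr1, Mc3r and Avpr1a passed the filter only through the 4-PBA libraries and are given without a test. Of the 8 others 0 were higher and 0 lower at an unadjusted p below 0.05 in 4-PBA minus CVST+Ligation in edgeR's quasi-likelihood test. Of the 14397 genes that passed the filter without the 4-PBA libraries, 1.54% were higher and 1.44% lower. The summed level of the receptors overlapped between the groups, at 29.1 to 42.7, 27.8 to 39 and 29.2 to 44.3 CPM. Galr1, a galanin receptor gene, differed by a log2 fold change of 1.99 (SE 0.78), with 7, 3 and 10 counts in the CVST+Ligation group and 29, 32 and 18 in the 4-PBA group. Mc3r, a receptor gene for the products of Pomc, differed by 1.95 (SE 0.77), Avpr1a, a vasopressin receptor gene, by 1.01 (SE 0.59) and Galr2 by -0.64 (SE 0.61). Mchr1, the receptor gene of melanin-concentrating hormone, had 276, 102 and 361 counts in the CVST+Ligation group and 208, 391 and 285 in the 4-PBA group. For 15 enzymes and granule proteins that process peptides the same test and threshold were used. In 4-PBA minus CVST+Ligation 0 were higher and 0 lower, where 1.81% and 1.42% of all genes tested were. In 4-PBA minus CVST 3 were higher and 2 lower, where 8.07% and 7.33% of all genes tested were. Among 8 or 15 genes a count of 0 lies near such small shares, so no lack of change is read from it. The summed level of the 15 genes was 6840 to 8020 CPM in the CVST+Ligation group and 7080 to 7520 CPM in the 4-PBA group. Pcsk2, a prohormone convertase gene, stood at a log2 fold change of -0.35 (SE 0.18), Scg3 and Scg2, granule protein genes, at -0.27 (SE 0.15) and 0.52 (SE 0.30), and Qpct, which caps peptides at their first residue, at 0.34 (SE 0.19).

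Of 14 peptides that cortex also makes, 3 were higher and 1 lower in the 4-PBA minus CVST+Ligation contrast at an unadjusted p below 0.05, where 1.81% of all genes tested were higher and 1.42% lower. Tac2, the neurokinin B gene, stood at a log2 fold change of 1.79 (SE 0.64), Pdyn, the prodynorphin gene, at 1.57 (SE 0.62) and Tac1, the substance P gene, at 1.29 (SE 0.49). Vip, made by cortical interneurons, stood at -0.93 (SE 0.25). Against the CVST group Vip fell in the 4-PBA group, with a log2 fold change of -1.78 (SE 0.25) and an adjusted p of 0.0408 by edgeR's quasi-likelihood test and Benjamini-Hochberg. This p was 0.0501 with total counts, 0.0601 with the filter of at least 10 counts per library and 0.0521 with the replicate block in edgeR, and in edgeR fits without 1 library it was 0.0239 without CVST replicate 3 and from 0.0658 to 0.173 without each of the 5 other libraries of the contrast.

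Marker lists of other brain regions also differed between the libraries, and the plot of summed marker lists gives them per mouse. The cortical excitatory neuron genes summed to 2130 to 2530 CPM in the CVST group, 662 to 1970 CPM in the CVST+Ligation group and 797 to 1110 CPM in the 4-PBA group. The thalamus genes summed to 116 to 154, 233 to 393 and 396 to 746 CPM, without overlap of the groups. The striatum genes were at 477 to 1280, 173 to 251 and 153 to 713 CPM and the midbrain dopamine neuron genes at 86.2 to 179, 371 to 558 and 407 to 498 CPM. The choroid plexus genes summed to 797 to 988, 22.8 to 867 and 452 to 3170 CPM, and the cerebellum genes to 631 to 1320, 763 to 3390 and 501 to 689 CPM. CVST+Ligation replicate 2 stood apart for the cerebellum genes, with 3390 CPM against 763 and 835 CPM in the other ligated libraries. The choroid plexus genes were at 102, 22.8 and 867 CPM in CVST+Ligation replicates 1, 2 and 3. The general neuron genes were at 4950 to 6020, 5100 to 5380 and 4120 to 5250 CPM, and among them Snap25 stood at a log2 fold change of -0.42 (SE 0.13), Rbfox3 at -0.36 (SE 0.14) and Nefl at 0.31 (SE 0.27) in the 4-PBA minus CVST+Ligation contrast. These lists move with the hypothalamic genes in part, and because the region taken from each mouse is not recorded, treatment and the tissue sampled cannot be told apart here.

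**Figure D4:**
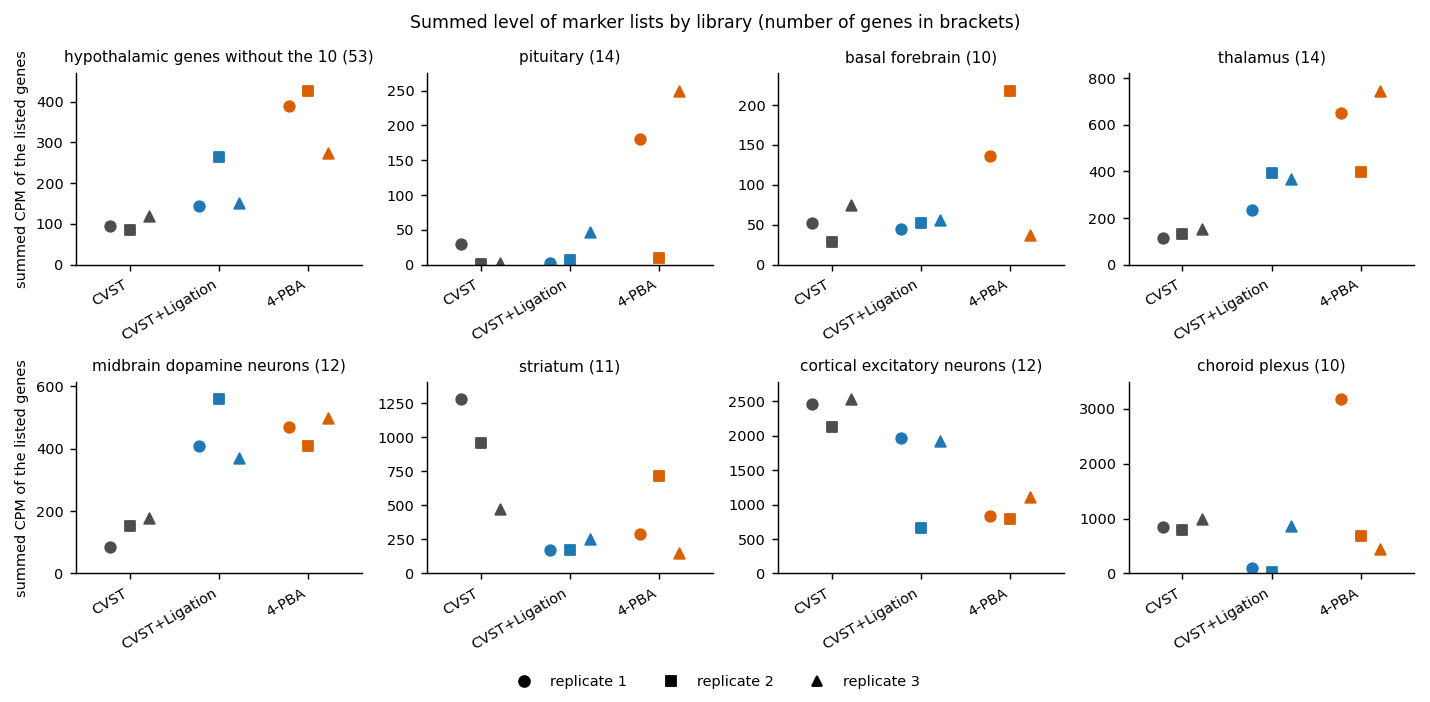
Summed CPM of 8 marker lists in the 9 libraries, with 1 symbol per replicate and axes starting at 0. The hypothalamic and thalamus lists are higher in every 4-PBA library than in any other, whereas the pituitary list is high in 4-PBA replicates 1 and 3 and at 8.92 CPM in replicate 2.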

How the data were processed

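RNA of 9 brain libraries, 3 mice per group, was sequenced by the authors, and the groups follow the sample titles. The authors filtered reads with fastp, aligned them with HISAT2 and used StringTie and RSEM; the submitters' processing notes name mm10 and GRCm38, and versions are not given in the sources used here. The authors deposited counts, whole numbers of reads per gene symbol, not normalized. They also deposited a second matrix, called TPM in the methods, whose values are FPKM: each is the count divided by the library total and 1 length per gene, and its columns sum to 780195 to 879695.

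edgeR 4.0.16 under R 4.3.3 was applied to the counts (TMM scaling, filterByExpr, quasi-likelihood model of the 3 groups without covariates, Benjamini-Hochberg adjustment over 14746 genes). Intervals of pooled rates are exact conditional binomial. No library repeated another: within a group, the chi-square of 2 libraries' counts over its degrees of freedom was 24.6 or more. Alternatives were DESeq2 1.42.0, its size factors or total counts in edgeR, other filters, a model of the 2 groups compared, the replicate number as a block, limma 3.58.1 on log2(FPKM + 1) and log2(FPKM + 0.1), and leaving out each library. Steps were tested on simulated data. The genes and the lists were chosen with earlier results of these data known. All 10 genes are named, with the 4 genes of smallest unadjusted p in the 4-PBA minus CVST+Ligation contrast in each list described and the 5 nearest profiles of Hcrt, Pmch, Nkx2-1 and Pomc. Genes named beyond this (Mchr1, Kiss1, Npvf, Ucn3, Bsx, Baiap3, Prl, Tbx19, Pou1f1, Foxe1, Sftpb and Sftpa1) were chosen after their values were seen. Of the lists of other regions and of general neurons only summed levels, Lhx8, Snap25, Rbfox3 and Nefl are given. Some genes that this rule selects are not reported here. Plots were drawn with matplotlib. How reads matching several genes were counted is not given in the sources used here.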

Additional observations from a re-analysis of the deposited data

How the results depend on the processing

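In both contrasts with the 4-PBA group the log2 fold changes of Trh and Gal, whose groups overlap, stayed above 0 in every alternative run. For CVST+Ligation minus CVST, those of Hcrt and Pmch stayed above 0, while 5 genes near 0 changed sign. Oxt was 0.0115 with total counts, 0.0165 with DESeq2 and 0.00424 with limma on log2(FPKM + 1), and ranged from -2.72 to 0.539 with 1 library left out. Pomc was -0.0776 with the replicate block, -0.0131 with limma on log2(FPKM + 1) and -0.0432 on log2(FPKM + 0.1), and from -0.494 to 0.227 with 1 library left out. Gal was -0.0984 with the replicate block and from -0.985 to 0.908 with 1 library left out, Avp from -2.28 to 0.409 and Trh from -0.86 to 1.38. Outside these, Nefl, a neuron gene, was at 0.311 in 4-PBA minus CVST+Ligation and from -0.0884 to 0.534 with 1 library left out. The count of 6 genes with every 4-PBA library above all others was 6 to 8 with 1 library left out, added after seeing the data, which cannot lower the count and so says nothing of its stability.

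The number of all genes at an adjusted p below 0.05 depended on the tool and filter. For CVST+Ligation minus CVST it was 3, and it was 264 with DESeq2, 0 with the filter of at least 10 counts per library, 1 when only the 2 groups were modelled, 1 with the replicate block, 13 with limma on log2(FPKM + 0.1) and 0 to 7 with 1 library left out. For 4-PBA minus CVST+Ligation it was 0, and 22 with DESeq2, 1 with the replicate block, 2 with limma on log2(FPKM + 1) and 0 to 2 with 1 library left out. For 4-PBA minus CVST it was 18, and 855 with DESeq2, 112 with every gene of at least 1 count, 2 with the filter of at least 10 counts per library, 234 when only the 2 groups were modelled, 87 with limma on log2(FPKM + 1), 134 with limma on log2(FPKM + 0.1), and 2 to 162 with 1 library left out. The genes at an unadjusted p below 0.05 in 4-PBA minus CVST+Ligation numbered 256 to 1497 with 1 library left out, 256 without 4-PBA replicate 2 and 1497 without CVST+Ligation replicate 2. The cause of these shifts was not tested.

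Of the 53 hypothalamic list genes, 10 had an unadjusted p below 0.05 for CVST+Ligation minus CVST and 4 with at least 10 counts in every library. For 4-PBA minus CVST+Ligation it was 8, and 14 with at least 1 count, 5 with at least 10 counts, 13 with limma on log2(FPKM + 1) and 6 to 15 with 1 library left out, with 14 and 15 without CVST+Ligation replicates 3 and 2. For 4-PBA minus CVST it was 16, and 26 and 10 with the 2 filters. With the filter passed without the 4-PBA libraries, added after seeing the data, these numbers were 9, 7 and 13. The higher share of the genes at an unadjusted p below 0.05 in 4-PBA minus CVST+Ligation was 56.1%. It was 66.1% with total counts, 72.4% and 71% with limma, 50% with only the 2 groups modelled and 51.9% with at least 10 counts. With 1 library left out it was 49% to 68.8%. For 4-PBA minus CVST the higher share was 52.4%, and 65.1%, 65% and 65.9% with total counts and limma. It was 48.5% with at least 10 counts and 47% to 58.6% with 1 library left out. Same-numbered libraries correlated between -0.0516 and 0.324 in their deviations, over 0.1 in 4 of 9 pairs. A pairing was taken only where every pair is over 0.1, so the replicate numbers were not used as one, although 7 of 9 samples matched best with their own number, a hint from the data and not the design. With the replicate block the list genes numbered 10, 10 and 17. With 3 mice per group and counts mostly at or under the floor for Hcrt, Oxt and Avp outside the 4-PBA group, folds of these genes are limited by counting.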
